A study of Sus scrofa with 6 samples.

Results

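Heat shock proteins and DNAJ proteins are molecular chaperones and their partners, and their messenger RNA was measured in liver, muscle and fat of Korean native and Berkshire pigs (Sus scrofa). A gene counted as a member if its symbol began with DNAJC, DNAJB, DNAJA, HSP90, HSPH, HSPE, HSPD, HSPB or HSPA, or was BAG plus a number. This rule found 56 of the 25322 gene IDs in the count files, and 11804 of these IDs carry a symbol. The name table holds 71 IDs under the rule, and the 56 are those listed in the files. The members were 21 DNAJC, 9 DNAJB and 3 DNAJA genes, 7 HSP70 genes, 3 genes of the HSP110 family (HSPA4, HSPA4L and HSPH1), 3 HSP90 genes, 3 small heat shock genes, the 2 chaperonin genes HSPD1 and HSPE1, and 3 BAG genes. The rule also took in HSPBP1 and HSPBAP1, whose products bind heat shock proteins but belong to none of these families.

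HSP70 proteins bind unfolded stretches of other proteins and release them as they use ATP. DNAJ proteins, which share a J domain, bring clients to HSP70 and start its ATP use, while BAG and HSP110 proteins exchange its nucleotide. HSP90 matures signalling proteins, small heat shock proteins hold clients without ATP, and the HSPD1 and HSPE1 chaperonin encloses them in the mitochondrial matrix. The factor HSF1 induces many cytosolic members under proteotoxic stress, and the unfolded protein response induces the set of the endoplasmic reticulum (ER), which folds secreted proteins. In striated muscle, BAG3 and HSPB8 clear damaged cytoskeletal proteins by chaperone-assisted selective autophagy.

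The 6 libraries were Korean native liver, Berkshire liver, Korean native muscle, Berkshire muscle, Korean native fat and Berkshire fat, with 1 library each. The labels give breed and tissue only. The fat depot, the muscle, and whether the libraries of a breed share an animal are not stated in the labels, so p-values measure only the spread among these libraries. All tissues came flash frozen, and RNA was extracted with Trizol for Illumina TruSeq libraries.

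Each library held between 5897407 and 7912093 counts on genes, and levels are given as CPM, counts scaled to the library total and TMM factors. A count of 0 allowed a level of up to 0.294 to 0.692 CPM, the value of 3 counts, which covers counting error only. The tissue labels were checked with marker lists. Summed hepatocyte markers (6 of 7 with an ID) were at 216113 to 249605 CPM in liver and at 26.8 to 65.0 CPM elsewhere, and summed skeletal muscle markers (5 of 7) were at 87112 to 136261 CPM in muscle and at 18.0 to 53.8 CPM elsewhere. Summed adipocyte markers (3 of 7, PLIN1, LIPE and CIDEC) were at 1532 CPM in Korean native fat and 2989 CPM in Berkshire fat, at 51.7 CPM in Korean native muscle and 241 CPM in Berkshire muscle, and at 11.2 to 13.6 CPM in liver. None of the fast fibre markers matched an ID. In these bulk samples, fewer cells of a type and less RNA per cell cannot be told apart.

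The members together held 0.558% of the counts of Korean native liver and 0.681% of Berkshire liver. They held 0.651% in Korean native muscle and 0.674% in Berkshire muscle, and 0.707% in Korean native fat and 1.04% in Berkshire fat. Without HSPA1L the share was 0.662% in Korean native fat and 0.818% in Berkshire fat, and Berkshire fat still held the highest share of the 6 libraries. These shares are of raw counts, and the order of the tissues depends on the scaling. On TMM-scaled levels all members together were at 4657 CPM in Korean native fat and 6436 CPM in Berkshire fat, the lowest of the 6 libraries. They were at 7315 to 8634 CPM in liver and at 7379 to 8853 CPM in muscle. Of the 56 members, 53 were abundant enough to be tested and 35 reached at least 10 CPM in every library. The 3 members left out were DNAJB13 and HSPB9, which reached at most 0.197 and 0.366 CPM in any library, and DNAJC5B, which had no count in any library.

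Tissues were compared by edgeR's quasi-likelihood test with Benjamini-Hochberg adjustment over 13810 genes, with tissue and breed as additive terms and all 6 libraries in the fit. A gene was called at an adjusted p under 0.05. In liver over fat, 18 of the 53 members passed (34%), against 28.7% of all genes tested. Of these 14 were higher (26.4% of members, against 15.2% of all genes) and 4 lower (7.55%, against 13.5%). In muscle over fat, 7 members passed (13.2%), against 16.4% of all genes. All 7 were higher, against 9.95% of all genes, and 0 were lower by edgeR's test, against 6.43% of all genes. At an unadjusted p under 0.05, edgeR put 3 members lower (DNAJC6, HSPA4L and HSPD1), against 16.5% of all genes, and DESeq2 and limma-voom each called 1 lower. In liver over muscle, 17 members passed (32.1%), against 35.9% of all genes. Of these 9 were higher (17%, against 18.6% of all genes) and 8 lower (15.1%, against 17.4%). The median log2 difference of the members was 0.55 in liver over fat, 0.42 in muscle over fat and 0.05 in liver over muscle, and that of all genes was 0.06, -0.05 and -0.01. A set of 27 members (50.9%) passed in no tissue comparison, against 53.1% of all genes.

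The fat libraries carry larger TMM factors (1.52 to 1.62) than liver (0.764 to 0.790) and muscle (0.736 to 0.914), and comparisons with fat depend on them. Scaled by total counts alone, the median of all genes was -0.94 in liver over fat and -0.98 in muscle over fat, and that of the members was -0.46 and -0.49. The count for liver over fat was then 17, with 3 higher and 14 lower, against 50.4% of all genes, and that for muscle over fat was 17, with 3 higher and 14 lower, against 43.6% of all genes. All 18, 7 and 17 members called in the 3 comparisons kept their direction under total counts.

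Most of the 8 members that act in the ER lumen were higher in liver than in muscle or fat. DNAJB12 and DNAJB14, whose J domains face the cytosol from the ER membrane, are not among these 8 and passed in no tissue comparison. In liver over muscle, 6 of the 8 ER lumen genes rose, against 18.6% of all genes, and 1 fell, against 17.4%, with a median log2 difference of 1.68. In liver over fat, 6 rose, against 15.2% of all genes, and 1 fell, against 13.5%, with a median of 1.503, and in muscle over fat the median was -0.26. HSPA5, the ER form of HSP70 known as BiP, was at 615 CPM in Korean native liver and 887 CPM in Berkshire liver. It was at 158 CPM in Korean native and 155 CPM in Berkshire muscle, and at 257 CPM in Korean native and 254 CPM in Berkshire fat. Both liver libraries lay above the other 4. HSPA5 differed by log2 2.24 ± 0.36 (SE) over muscle, with an adjusted p of 0.0032 by edgeR's test, and 1.54 ± 0.35 over fat, with an adjusted p of 0.0165.

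**Figure D1:**
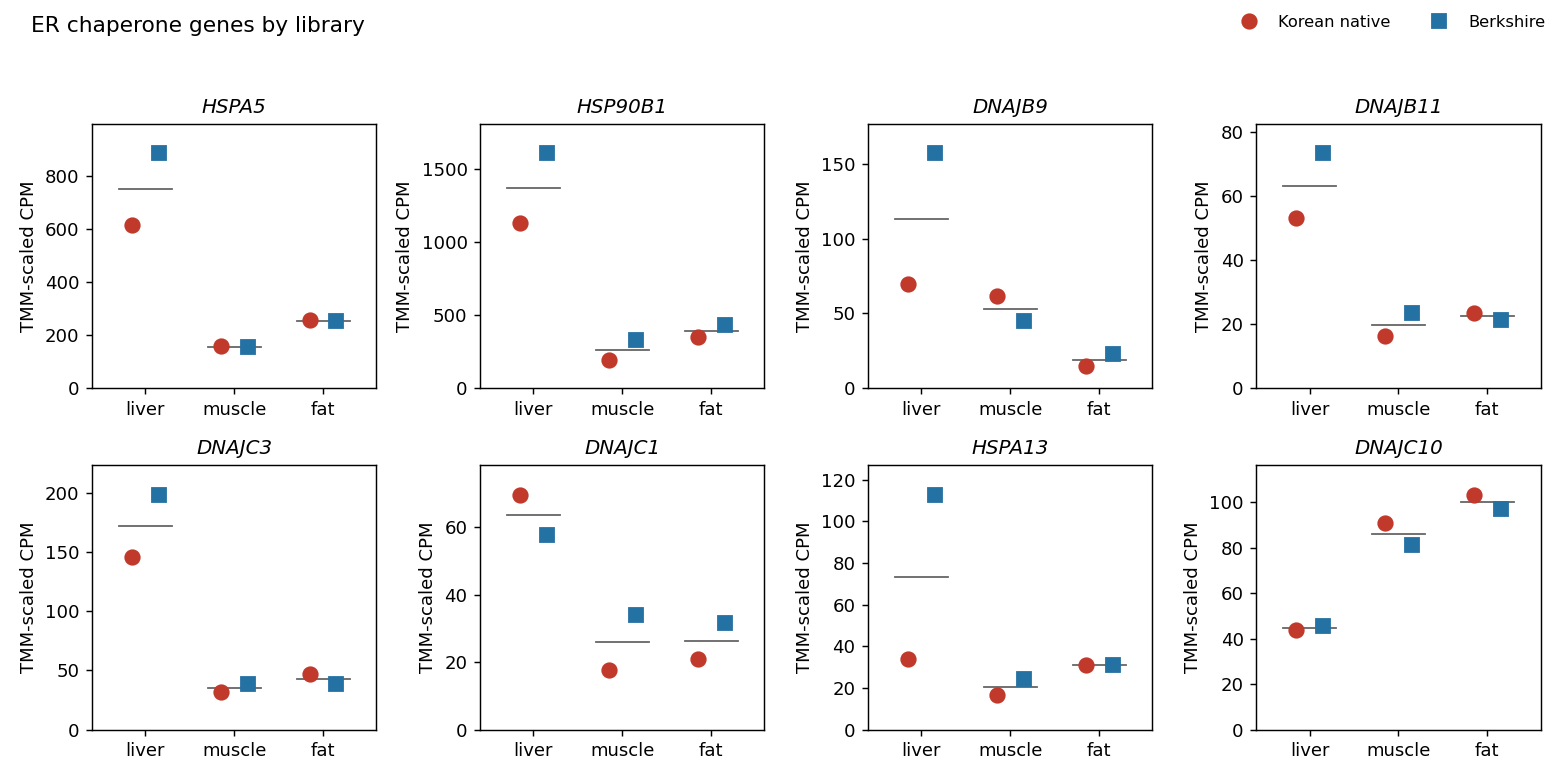
TMM-scaled CPM (vertical axis, from 0) of the 8 ER lumen genes in liver, muscle and fat, with Korean native libraries as red circles, Berkshire libraries as blue squares and the tissue mean as a grey line. HSP90B1 is at 1132 and 1608 CPM in the Korean native and Berkshire liver libraries and at most 436 CPM elsewhere, and DNAJC10 is the one gene of the 8 with its lowest values in liver.

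HSP90B1, the HSP90 of the ER known as GRP94, followed the same order. It was at 1132 CPM in Korean native liver and 1608 CPM in Berkshire liver, at 197 CPM in Korean native and 330 CPM in Berkshire muscle, and at 352 CPM in Korean native and 436 CPM in Berkshire fat. HSP90B1 differed by log2 2.40 ± 0.36 over muscle (adjusted p 0.0025, edgeR) and 1.78 ± 0.35 over fat (adjusted p 0.0099, edgeR). Over the 6 libraries HSPA5 and HSP90B1 had a Pearson r of 0.97, a description over libraries that share tissue and scaling.

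The ER DNAJ proteins serve HSPA5 at different steps. DNAJC3, which binds unfolded clients and also inhibits the kinase PERK, was at 146 CPM in Korean native and 199 CPM in Berkshire liver, at 31.8 and 38.4 CPM in Korean native and Berkshire muscle, and at 46.8 and 38.9 CPM in Korean native and Berkshire fat. Its log2 difference was 2.29 ± 0.33 over muscle and 1.99 ± 0.33 over fat, with adjusted p of 0.0021 and 0.00455 by edgeR. DNAJB11, a soluble ER partner of HSPA5, was at 53.0 CPM in Korean native and 73.2 CPM in Berkshire liver, against 16.4 to 23.6 CPM in the other 4 libraries. DNAJC1, an ER membrane protein with its J domain in the lumen, was at 69.8 CPM in Korean native and 57.8 CPM in Berkshire liver, against 17.8 to 34.0 CPM in the other 4. The liver libraries lay above all others for each of these 3 genes.

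DNAJB9 and HSPA13 were lower in Korean native than in Berkshire liver. DNAJB9, which helps move misfolded proteins to degradation, was at 69.4 CPM in Korean native liver and 157 CPM in Berkshire liver. It was at 61.6 CPM in Korean native and 44.7 CPM in Berkshire muscle, and at 15.1 CPM in Korean native and 22.7 CPM in Berkshire fat. It passed over fat (log2 2.54 ± 0.44, adjusted p 0.0058, edgeR) and not over muscle. HSPA13, an HSP70 of the microsomes, was at 34.0 CPM in Korean native liver and 113 CPM in Berkshire liver, at 16.8 and 24.5 CPM in Korean native and Berkshire muscle, and at 31.1 and 31.2 CPM in Korean native and Berkshire fat. It passed over muscle (log2 1.69 ± 0.45, adjusted p 0.026, edgeR), and without Berkshire liver its log2 was 0.86 and it no longer passed. It also missed the threshold without Berkshire muscle (1.51) and without Korean native muscle (1.83).

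DNAJC10, an ER disulfide reductase that works with HSPA5, ran the other way. It was at 43.7 CPM in Korean native liver and 45.4 CPM in Berkshire liver, at 91.1 and 81.5 CPM in Korean native and Berkshire muscle, and at 103 and 97.2 CPM in Korean native and Berkshire fat. Both liver libraries lay below the other 4. DNAJC10 differed by log2 -0.95 ± 0.29 over muscle and -1.17 ± 0.29 over fat (adjusted p 0.039 and 0.0225, edgeR). Over muscle the call was lost when any 1 of the 6 libraries was left out, with log2 between -1.05 and -0.87, and over fat it was lost without any of the 4 liver and fat libraries, with log2 between -1.26 and -1.08.

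HSPA5, HSP90B1 and DNAJC3 kept their calls over muscle without each library in turn. DNAJB11 lost its call without Berkshire liver (log2 1.503), and DNAJC1 lost it without Korean native liver (0.84) and without Korean native muscle (0.99). Over fat, DNAJB9 kept its call without each library. Without Berkshire fat, HSPA5 (1.40), HSP90B1 (1.63), DNAJB11 (1.16), DNAJC1 (1.46) and DNAJC3 (1.68) no longer passed over fat. Without Korean native fat, HSPA5 (1.67), HSP90B1 (1.94) and DNAJC1 (1.18) did not pass either, nor did HSPA5 (1.26) and DNAJB11 (1.32) without Berkshire liver or DNAJC1 (0.78) without Korean native liver. Under total counts the log2 over fat was 0.52 for HSPA5, 0.77 for HSP90B1, 0.45 for DNAJB11 and 0.33 for DNAJC1, and none of these 4 passed.

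Other ER folding genes outside the name rule were taken from a list of 26, of which 14 could be tested. In liver over muscle 11 of the 14 rose, against 18.6% of all genes, with a median log2 of 1.84 against -0.01 for all genes, and in liver over fat 5 rose, against 15.2%, and 1 fell, against 13.5%, with a median of 1.05. PDIA4, a protein disulfide isomerase, was at 447 CPM in Korean native and 685 CPM in Berkshire liver, against 70.8 and 109 CPM in Korean native and Berkshire muscle. PDIA3, another of the isomerases, was at 959 CPM in Korean native and 956 CPM in Berkshire liver, against 128 and 186 CPM in Korean native and Berkshire muscle. PDIA6 and HYOU1, the ER exchange factor of the HSP110 family, had log2 differences of 2.10 and 2.14. The gene that fell in liver over fat was PPP1R15A, a phosphatase subunit that restores translation after stress, at 18.1 and 19.4 CPM in Korean native and Berkshire liver against 37.6 and 87.0 CPM in Korean native and Berkshire fat.

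**Figure D2:**
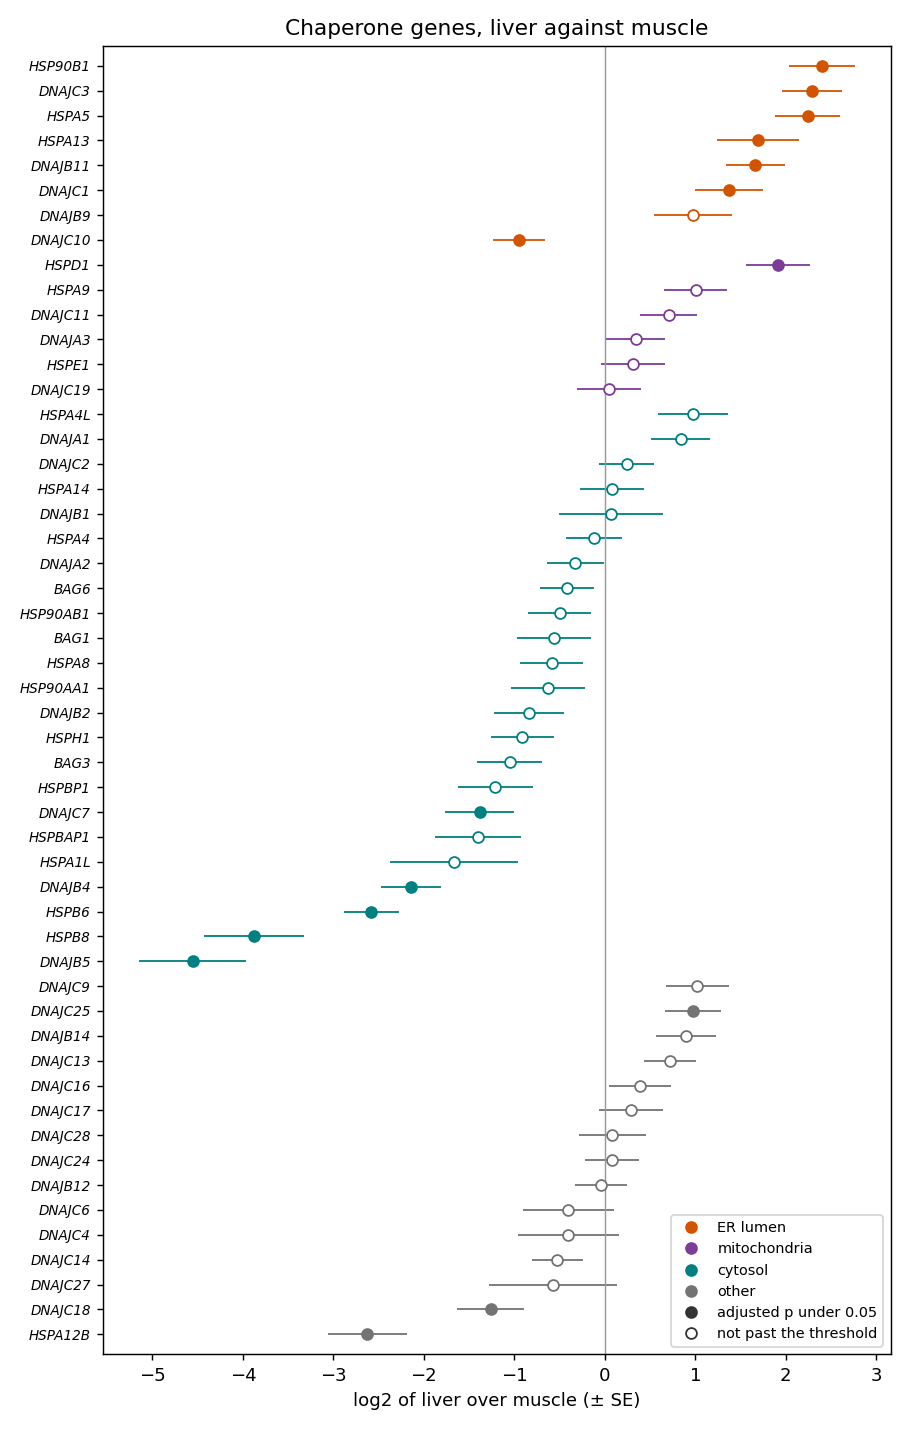
Log2 of liver over muscle with its SE (horizontal axis) for 52 of the 53 tested members, 1 row per gene, coloured by the compartment of the product and filled where the adjusted p is under 0.05. DNAJC22 is not drawn because it had no count in muscle; 6 of the 8 ER lumen genes lie to the right as filled points and 5 of the 23 cytosolic genes lie to the left as filled points.

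Of the 23 tested cytosolic members, 6 rose in muscle over fat, against 9.95% of all genes. In liver over muscle 5 of the 23 fell, against 17.4% of all genes, and no difference between compartments was tested. HSPB8, the small heat shock protein that pairs with BAG3, was at 22.5 CPM in Korean native liver and 48.4 CPM in Berkshire liver. It was at 611 CPM in Korean native and 448 CPM in Berkshire muscle, and at 10.6 CPM in Korean native and 5.68 CPM in Berkshire fat. The 3 tissues did not overlap. The log2 difference was 6.02 ± 0.61 in muscle over fat (adjusted p 0.0011, edgeR), -3.88 ± 0.55 in liver over muscle (0.0019) and 2.14 ± 0.53 in liver over fat (0.024). The first 2 calls held without each library, and the third was lost without Berkshire fat (log2 1.53), without Berkshire liver (1.19) and under total counts (1.10).

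**Figure D3:**
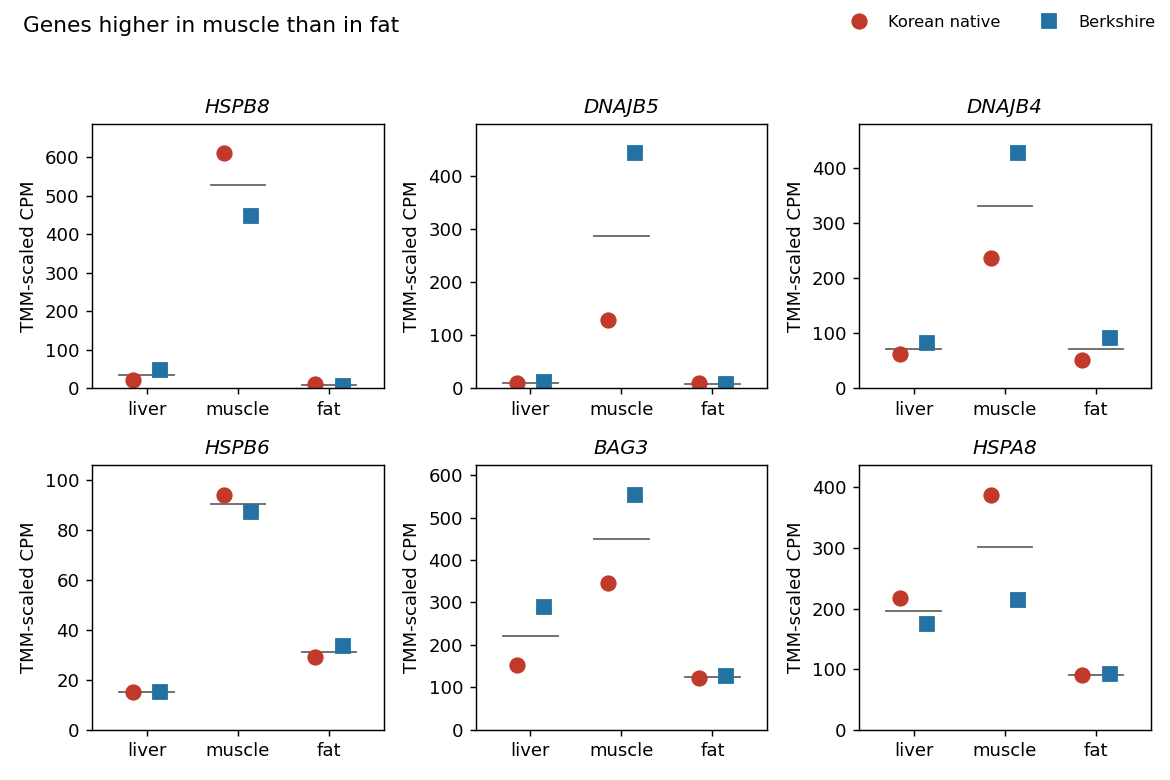
TMM-scaled CPM (vertical axis, from 0) of 6 genes that were higher in muscle than in fat, in liver, muscle and fat, with Korean native libraries as red circles, Berkshire libraries as blue squares and the tissue mean as a grey line. HSPB8, DNAJB5, DNAJB4 and HSPB6 have both muscle libraries above the other 4, and DNAJB5 reaches 443 CPM in Berkshire muscle and 130 CPM in Korean native muscle.

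DNAJB5 and DNAJB4 are DNAJ proteins of the same class as DNAJB1. DNAJB5 was at 10.3 and 11.8 CPM in Korean native and Berkshire liver, at 130 CPM in Korean native muscle and 443 CPM in Berkshire muscle, and at 9.96 and 7.64 CPM in Korean native and Berkshire fat. DNAJB5 differed by log2 4.83 ± 0.60 in muscle over fat and -4.56 ± 0.59 in liver over muscle (adjusted p 0.0029 and 0.0013, edgeR), and both calls held without each library. DNAJB4 was at 62.6 and 81.8 CPM in Korean native and Berkshire liver, at 236 CPM in Korean native and 426 CPM in Berkshire muscle, and at 51.1 CPM in Korean native and 92.3 CPM in Berkshire fat. Its log2 difference was 2.21 ± 0.33 in muscle over fat (adjusted p 0.0061, edgeR) and -2.14 ± 0.33 in liver over muscle (0.0026), and the call over fat was lost without Korean native fat (log2 2.10).

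HSPB6, a small heat shock protein abundant in contractile cells, was at 15.2 and 15.0 CPM in Korean native and Berkshire liver, at 94.1 and 86.9 CPM in Korean native and Berkshire muscle, and at 29.1 and 33.4 CPM in Korean native and Berkshire fat. The tissues did not overlap, and the breeds lay close together in each. The log2 difference was -2.58 ± 0.31 in liver over muscle (adjusted p 0.00088, edgeR), 1.54 ± 0.29 in muscle over fat (0.016) and -1.04 ± 0.29 in liver over fat (0.036). Summed smooth muscle markers (5 of 6 with an ID) had the same tissue order, at 211 and 260 CPM in Korean native and Berkshire liver, 1989 and 2916 CPM in Korean native and Berkshire muscle, and 674 and 685 CPM in Korean native and Berkshire fat. Most of each muscle sum was SYNPO2, which is also in the selective autophagy list below, where its levels are given. Without SYNPO2 the 2 muscle sums would not both lie above those of fat. Of these 5 markers, 4 fell in liver over fat, 3 fell in liver over muscle and 2 rose in muscle over fat, and their part in the HSPB6 levels was not tested. The call in liver over muscle held without each library. In muscle over fat it was lost without Berkshire fat (1.68), Korean native fat (1.41) or Korean native muscle (1.44) and under total counts (0.60). In liver over fat it was lost without any of the 4 liver and fat libraries (-1.18 to -0.91).

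BAG3 and HSPA8 rose in muscle over fat. BAG3, the exchange factor that links HSP70 and HSPB8 to autophagy, was at 151 CPM in Korean native and 290 CPM in Berkshire liver, at 346 CPM in Korean native and 554 CPM in Berkshire muscle, and at 121 and 127 CPM in Korean native and Berkshire fat. The log2 difference was 1.80 ± 0.36 in muscle over fat (adjusted p 0.019, edgeR), and in liver over muscle it was -1.05 ± 0.36, which missed the threshold (0.057) but passed by DESeq2 (-1.07, adjusted p 0.021) and limma-voom (-1.06, adjusted p 0.033). HSPA8, the constitutive HSP70, was at 217 and 174 CPM in Korean native and Berkshire liver, at 388 CPM in Korean native and 214 CPM in Berkshire muscle, and at 89.5 and 91.5 CPM in Korean native and Berkshire fat. Its log2 difference in muscle over fat was 1.68 ± 0.36 (adjusted p 0.023, edgeR). Both calls were lost without Berkshire fat (BAG3 1.46, HSPA8 1.99), Korean native fat (2.20 and 1.37) or Korean native muscle (1.90 and 1.32), and under total counts (0.87 and 0.73). BAG3 had a Pearson r of 0.92 with HSPB8 over the 6 libraries, a description over libraries that share tissue.

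Other members that fell in liver over muscle were DNAJC7 and DNAJC18. DNAJC7, which binds both HSP70 and HSP90, was at 82.2 and 76.8 CPM in Korean native and Berkshire liver, at 317 CPM in Korean native muscle and 133 CPM in Berkshire muscle, and at 100.2 and 73.3 CPM in Korean native and Berkshire fat. Its log2 difference was -1.38 ± 0.38 (adjusted p 0.027, edgeR), and the call was lost without Korean native muscle (-0.88) or Korean native liver (-1.01). DNAJC18 was at 4.31 and 4.00 CPM in Korean native and Berkshire liver against 11.3 and 8.79 CPM in Korean native and Berkshire muscle (log2 -1.26 ± 0.37, adjusted p 0.035, edgeR), and its call was lost without any of these 4 libraries (-1.41 to -1.11).

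The genes that work with these cytosolic chaperones were read from lists. Of 20 tested co-chaperones and HSF factors, 7 rose and 1 fell in muscle over fat, against 9.95% and 6.43% of all genes, with a median log2 of 1.10 against -0.05 for all genes, and 6 fell in liver over muscle, against 17.4%. UNC45B, the myosin chaperone of striated muscle, was at 394 CPM in Korean native and 214 CPM in Berkshire muscle against 0.197 and 0.196 CPM in Korean native and Berkshire fat, and had no count in liver. CDC37L1, which binds HSP90, was at 148 CPM in Korean native and 115 CPM in Berkshire muscle against 35.9 and 29.3 CPM in Korean native and Berkshire fat. TTC4 and HSF2 had log2 differences of 1.59 and 1.68. The gene that fell was UNC45A, the general form, at 22.8 and 21.6 CPM in Korean native and Berkshire muscle against 47.4 and 56.0 CPM in Korean native and Berkshire fat. HSF1 did not pass in any tissue comparison, and was at 80.0 CPM in Korean native muscle and at 25.2 to 37.0 CPM in the other 5 libraries.

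A list for chaperone-assisted selective autophagy also held ubiquitin ligases of muscle, and 9 of its genes were tested. Of these, 4 rose and 1 fell in muscle over fat, against 9.95% and 6.43% of all genes. In liver over muscle 1 rose and 5 fell, against 18.6% and 17.4%. FLNC, the filamin that BAG3 and HSPB8 clear, was at 2084 CPM in Korean native and 3947 CPM in Berkshire muscle against 103 CPM in Korean native and 35.4 CPM in Berkshire fat. SYNPO2, which tethers the BAG3 complex in this pathway, was at 1643 CPM in Korean native and 2100.1 CPM in Berkshire muscle against 224 CPM in Korean native and 119 CPM in Berkshire fat. TRIM63 and FBXO32, the ubiquitin ligases of muscle in the list, were among the 4 that rose, with log2 differences of 7.97 and 2.66. FLNC and SYNPO2 are contractile-cell genes themselves, and SYNPO2 is also in the smooth muscle list. Of 10 tested subunits of the cytosolic chaperonin TRiC and of prefoldin, 1 rose in muscle over fat, a share near the 9.95% of all genes. It was PFDN4, at 51.0 CPM in Korean native and 24.7 CPM in Berkshire muscle against 9.66 and 8.72 CPM in Korean native and Berkshire fat.

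Of the 6 mitochondrial members, 4 rose in liver over fat, against 15.2% of all genes, with a median log2 of 1.25. In muscle over fat 1 rose, against 9.95%, and in liver over muscle 1 rose, against 18.6%. HSPD1, the chaperonin HSP60, was at 713 CPM in Korean native and 884 CPM in Berkshire liver, at 215 and 205 CPM in Korean native and Berkshire muscle, and at 389 CPM in Korean native and 514 CPM in Berkshire fat. The 3 tissues did not overlap. It rose in liver over muscle (log2 1.92 ± 0.35, adjusted p 0.0058, edgeR) and this call held without each library. HSPE1, its cofactor and in RefSeq its neighbour on the chromosome, was at 131 CPM in Korean native and 169 CPM in Berkshire liver, at 128 and 108 CPM in Korean native and Berkshire muscle, and at 91.2 CPM in Korean native and 161 CPM in Berkshire fat. HSPE1 passed in no comparison, and its 2 fat libraries lay on either side of the muscle libraries.

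HSPA9, the HSP70 of the matrix, was at 796 and 859 CPM in Korean native and Berkshire liver, at 472 CPM in Korean native and 357 CPM in Berkshire muscle, and at 309 and 313 CPM in Korean native and Berkshire fat. The log2 difference in liver over fat was 1.41 ± 0.35 (adjusted p 0.023, edgeR). DNAJA3, its DNAJ partner, was at 69.9 and 76.6 CPM in Korean native and Berkshire liver, at 69.7 CPM in Korean native and 46.7 CPM in Berkshire muscle, and at 25.7 and 30.1 CPM in Korean native and Berkshire fat (log2 1.39 ± 0.33 in liver over fat, adjusted p 0.019, edgeR). DNAJC19, of the protein import motor, passed in both liver over fat (1.40 ± 0.36, adjusted p 0.026, edgeR) and muscle over fat (1.36 ± 0.36, 0.046), and DNAJC11, of the inner membrane organising complex, passed in liver over fat (1.10 ± 0.31, 0.038). DNAJC19 was at 26.2 CPM in Korean native and 39.4 CPM in Berkshire fat and at 69.6 to 102 CPM in the other 4 libraries. Each of these liver over fat calls was lost without Berkshire fat (log2 1.34 to 1.70), and under total counts (0.09 to 0.40). They were also lost without Korean native fat (0.87 to 1.33) and without Berkshire liver (1.08 to 1.25), and DNAJC11 (1.11) and HSPA9 (1.56) without Korean native liver. The muscle over fat call of DNAJC19 was lost without Berkshire fat (1.63), Korean native fat (1.09) or Korean native muscle (0.84) and under total counts (0.41). Of 6 tested mitochondrial chaperones and proteases outside the name rule, 1 rose in liver over fat, against 15.2% of all genes. It was CLPX, an unfoldase, at 254 CPM in Korean native and 371 CPM in Berkshire liver against 49.8 CPM in Korean native and 73.3 CPM in Berkshire fat.

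The remaining members with tissue differences were DNAJ and HSP70 genes of other compartments. DNAJC22, whose fly counterpart works in clathrin-mediated endocytosis, was at 6.79 CPM in Korean native liver and 10.8 CPM in Berkshire liver and had no count in muscle or fat. Taking 3 counts per library as the floor, it was at least 9.82-fold higher in Korean native liver than in Korean native muscle and at least 19.7-fold higher in Berkshire liver than in Berkshire muscle. Against fat these bounds were 23.0 in Korean native and 36.8 in Berkshire. The edgeR test passed over both tissues (adjusted p 0.0030 over fat and 0.0040 over muscle), and DESeq2's did not. DNAJC25 was at 23.0 and 23.8 CPM in Korean native and Berkshire liver, at 11.1 and 12.8 CPM in Korean native and Berkshire muscle, and at 7.20 and 7.35 CPM in Korean native and Berkshire fat. It rose over fat (log2 1.68 ± 0.31, adjusted p 0.0074, edgeR), a call kept without each library and lost under total counts (0.67). It rose over muscle at 0.97 ± 0.31 (adjusted p 0.046), a call lost without any 1 of the 6 libraries (0.88 to 1.06), with DESeq2 or with no filter (0.95 each) and under total counts (0.89).

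HSPA12B, a distant HSP70 relative known from endothelial cells, was lowest in liver. It was at 1.66 and 1.60 CPM in Korean native and Berkshire liver, at 11.5 and 8.79 CPM in Korean native and Berkshire muscle, and at 14.9 CPM in Korean native and 21.2 CPM in Berkshire fat. The log2 difference was -3.45 ± 0.43 over fat and -2.62 ± 0.44 over muscle (adjusted p 0.0015 and 0.0040, edgeR), and both calls held without each library. Summed endothelial markers (3 of 6 with an ID) were at 333 and 345 CPM in Korean native and Berkshire liver, 398 and 445 CPM in Korean native and Berkshire muscle, and 679 and 937 CPM in Korean native and Berkshire fat, and their part in the HSPA12B levels was not tested. The 3 markers did not move together, since in liver over muscle PECAM1 fell (log2 -1.41), KDR rose (1.33) and TEK was at 0.34 and did not pass, and in liver over fat only PECAM1 of the 3 passed (-2.43). DNAJC6, the clathrin uncoating factor auxilin, was at 1.66 and 1.80 CPM in Korean native and Berkshire liver against 5.32 and 8.72 CPM in Korean native and Berkshire fat (log2 -1.97 ± 0.46, adjusted p 0.018, edgeR). Its call was lost without Berkshire fat (-1.72), Berkshire liver (-1.76) or Korean native liver (-2.19). DNAJC16 passed in liver over fat at 1.17 ± 0.34 (adjusted p 0.042, edgeR) and lost the call without any of the 4 liver and fat libraries (1.02 to 1.31), with DESeq2 (1.12) and under total counts (0.16).

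HSPA1L and DNAJB1 passed in no tissue comparison. HSPA1L (ENSSSCG00000030368) is an HSP70 gene whose neighbour in RefSeq's Sscrofa11.1 gene table is HSP70.2, the pig form of the heat-inducible HSPA1A and HSPA1B. HSP70.2 was not analysed here, and these genes are close paralogs, so the counting could split or share reads among them and the level of HSPA1L is uncertain. It was at 630 CPM in Korean native and 439 CPM in Berkshire liver, at 2096 CPM in Korean native and 1276 CPM in Berkshire muscle, and at 299 CPM in Korean native fat and 1361 CPM in Berkshire fat. The fat libraries lay on both sides of all liver libraries and of the lower muscle library. No tissue comparison passed (log2 -1.66 ± 0.71 in liver over muscle, adjusted p 0.11, edgeR), but without either fat library that difference did (-1.64, adjusted p 0.022 without Berkshire fat and 0.023 without Korean native fat). Muscle over fat was at 1.13 ± 0.75 (adjusted p 0.32, edgeR), and passed without Berkshire fat (2.77, adjusted p 0.032).

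**Figure D4:**
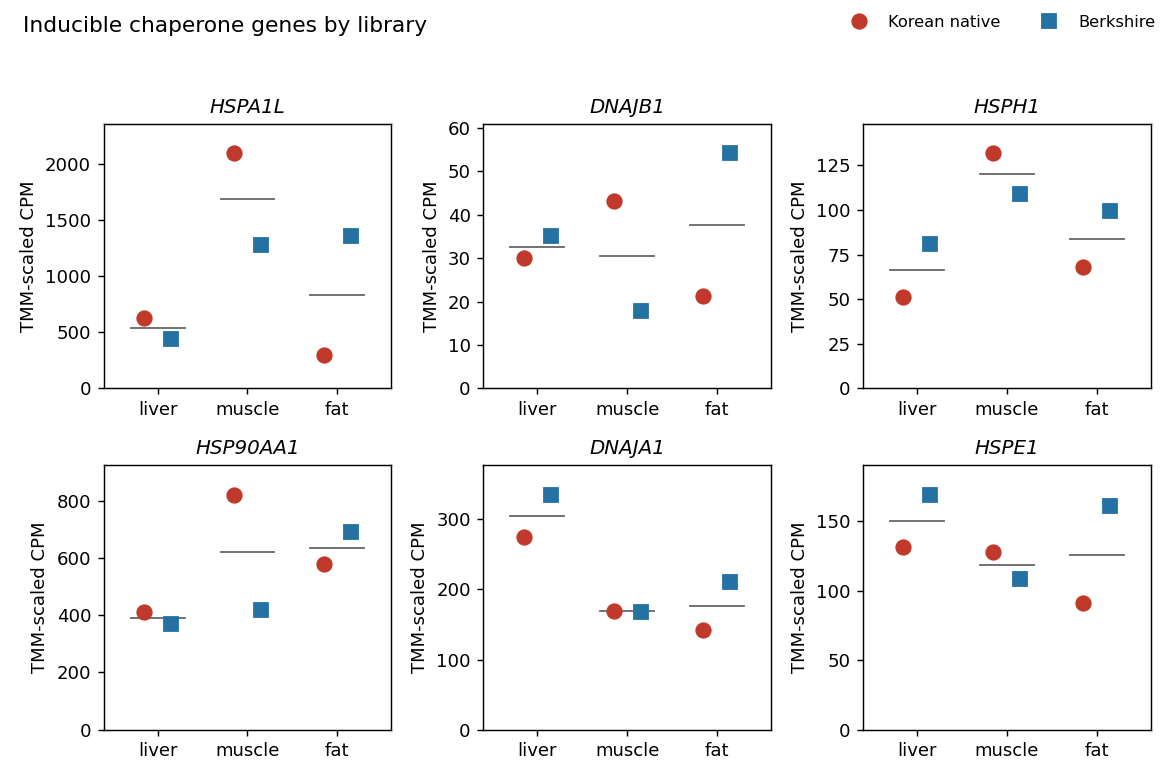
TMM-scaled CPM (vertical axis, from 0) of HSPA1L, DNAJB1, HSPH1, HSP90AA1, DNAJA1 and HSPE1 in liver, muscle and fat. Korean native libraries are red circles, Berkshire libraries are blue squares and the tissue mean is a grey line. The level of HSPA1L is uncertain, because its reads could be split or shared with close paralogs. HSPA1L and DNAJB1 have Korean native below Berkshire in fat (299 against 1361 CPM and 21.2 against 54.2 CPM) and Korean native above Berkshire in muscle.

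DNAJB1 (ENSSSCG00000013784), the main DNAJ partner of HSP70 in the heat shock response, was at 30.0 CPM in Korean native and 35.0 CPM in Berkshire liver, at 43.1 CPM in Korean native and 17.9 CPM in Berkshire muscle, and at 21.2 CPM in Korean native and 54.2 CPM in Berkshire fat. The tissues overlapped, and the highest and lowest values were both Berkshire. The log2 difference was -0.19 in liver over fat, -0.26 in muscle over fat and 0.07 in liver over muscle, and none passed (adjusted p 0.84, 0.79 and 0.94, edgeR). Over the 6 libraries DNAJB1 had a Pearson r of 0.42 with HSPA1L, -0.30 with BAG3 (ENSSSCG00000010686) and 0.77 with HSPE1, and HSPA1L had 0.46 with BAG3. Each r is a description over libraries that share tissue and scaling.

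Among 5464 genes with a symbol and at least 5 CPM in every library, the genes outside the rule with a pattern most like DNAJB1 were ATP6V1H (r 0.989), RRP36 (0.986), HDHD2 (0.954), UBD (0.949) and TMEM129 (0.944), over 6 libraries. They were picked for the highest r of the 5464 genes, so each r is a description and was not tested. ATP6V1H spanned 22.7 to 31.5 CPM, so its range was narrower than the 17.9 to 54.2 CPM of DNAJB1.

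The cytosolic HSP90 genes and their partners were also without a tissue call. HSP90AA1, the inducible form, was at 411 and 370 CPM in Korean native and Berkshire liver, at 822 CPM in Korean native and 418 CPM in Berkshire muscle, and at 579 CPM in Korean native and 692 CPM in Berkshire fat. HSP90AB1, the constitutive form, was at 503 and 590 CPM in Korean native and Berkshire liver, at 806 and 727 CPM in Korean native and Berkshire muscle, and at 720 and 893 CPM in Korean native and Berkshire fat. Both HSP90 genes had their 2 liver libraries as the lowest of the 6, and neither passed. HSPH1, an HSP110 exchange factor induced with them, was at 51.4 CPM in Korean native and 80.8 CPM in Berkshire liver, at 132 and 109 CPM in Korean native and Berkshire muscle, and at 68.0 and 99.2 CPM in Korean native and Berkshire fat.

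DNAJA1, a DNAJ partner of HSPA8, was at 275 and 335 CPM in Korean native and Berkshire liver, at 169 and 168 CPM in Korean native and Berkshire muscle, and at 142 and 210.5 CPM in Korean native and Berkshire fat. HSPA4, another HSP110 exchange factor, was at 233 and 228 CPM in Korean native and Berkshire liver, at 271 and 232 CPM in Korean native and Berkshire muscle, and at 183 and 164 CPM in Korean native and Berkshire fat. Neither DNAJA1 nor HSPA4 passed in a tissue comparison.

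The other members without a tissue call included DNAJB2 and DNAJB14. DNAJB2, a DNAJ protein best known from neurons, was at 23.4 CPM in Korean native and 13.8 CPM in Berkshire liver, at 41.3 CPM in Korean native and 25.4 CPM in Berkshire muscle, and at 15.6 and 20.8 CPM in Korean native and Berkshire fat. DNAJB14, a DNAJ protein of the ER membrane, was at 25.4 CPM in Korean native and 14.8 CPM in Berkshire liver, at 11.3 and 9.70 CPM in Korean native and Berkshire muscle, and at 15.3 and 12.5 CPM in Korean native and Berkshire fat. The liver libraries of DNAJB2 overlapped those of fat, and the liver libraries of DNAJB14 overlapped those of fat.

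HSPA14, an HSP70 that sits with a DNAJ partner on the ribosome, was at 12.8 and 8.80 CPM in Korean native and Berkshire liver, at 14.1 CPM in Korean native and 6.96 CPM in Berkshire muscle, and at 6.01 and 4.60 CPM in Korean native and Berkshire fat. DNAJC2, that ribosomal partner, was at 30.2 and 32.2 CPM in Korean native and Berkshire liver, at 28.1 and 24.9 CPM in Korean native and Berkshire muscle, and at 22.3 and 16.4 CPM in Korean native and Berkshire fat. Both ribosome-bound genes had their 2 fat libraries below the other 4, and neither passed (adjusted p 0.075 for HSPA14 and 0.13 for DNAJC2 in liver over fat, edgeR). DNAJC24, which acts in the synthesis of diphthamide, was at 26.7 and 20.2 CPM in Korean native and Berkshire liver, at 24.7 and 19.6 CPM in Korean native and Berkshire muscle, and at 18.0 and 12.6 CPM in Korean native and Berkshire fat. DNAJC14 lay just outside the threshold in liver over fat (log2 -0.92, adjusted p 0.0504, edgeR). BAG6, DNAJA2 and DNAJB12 were between 37.1 and 133 CPM in every library, and DNAJC9, DNAJC17, HSPA4L and HSPBP1 between 3.48 and 16.1 CPM. DNAJC27 was at 0.829 to 3.00 CPM.

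Breeds were compared over the tissues by the breed term of the same model, and 0 of 53 members passed in Korean native over Berkshire by edgeR's test, against 0.109% of all genes. DESeq2 and limma-voom also called no member. At an unadjusted p under 0.05 there were 3 of 53 (5.66%), against 7.99% of all genes. These were DNAJC28 (log2 1.22 ± 0.31, unadjusted p 0.0053, adjusted p 0.40, edgeR), DNAJC13 (0.56 ± 0.23, adjusted p 0.62) and DNAJB4 (-0.70 ± 0.26, adjusted p 0.56). DNAJC28 was higher in Korean native in 3 of 3 tissues, at 13.9 CPM in Korean native and 5.20 CPM in Berkshire liver, at 13.1 and 4.94 CPM in Korean native and Berkshire muscle, and at 5.42 and 3.04 CPM in Korean native and Berkshire fat. DNAJC13, an endosomal DNAJ protein, was also higher in Korean native in 3 of 3 tissues, at 79.4 against 58.2 CPM in Korean native and Berkshire liver, 49.1 against 34.6 CPM in Korean native and Berkshire muscle, and 48.1 against 29.0 CPM in Korean native and Berkshire fat. DNAJB4 was lower in Korean native in 3 of 3 tissues.

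Within a tissue each breed had 1 library, so there is no replicate check and no test. Ratios are of TMM-scaled CPM with a prior count of 2, for members that reached 10 CPM in either library, and intervals are for the plain ratio of scaled CPM with no prior count. In fat, 2 of 38 members were at least 2-fold apart (5.26%), against 7.57% of all genes. In liver, 4 of 45 were (8.89%), against 11.3% of all genes, and in muscle 7 of 48 were (14.6%), against 20.3%. The members therefore differed by 2-fold between the breeds in no larger a share than all genes did.

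**Figure D5:**
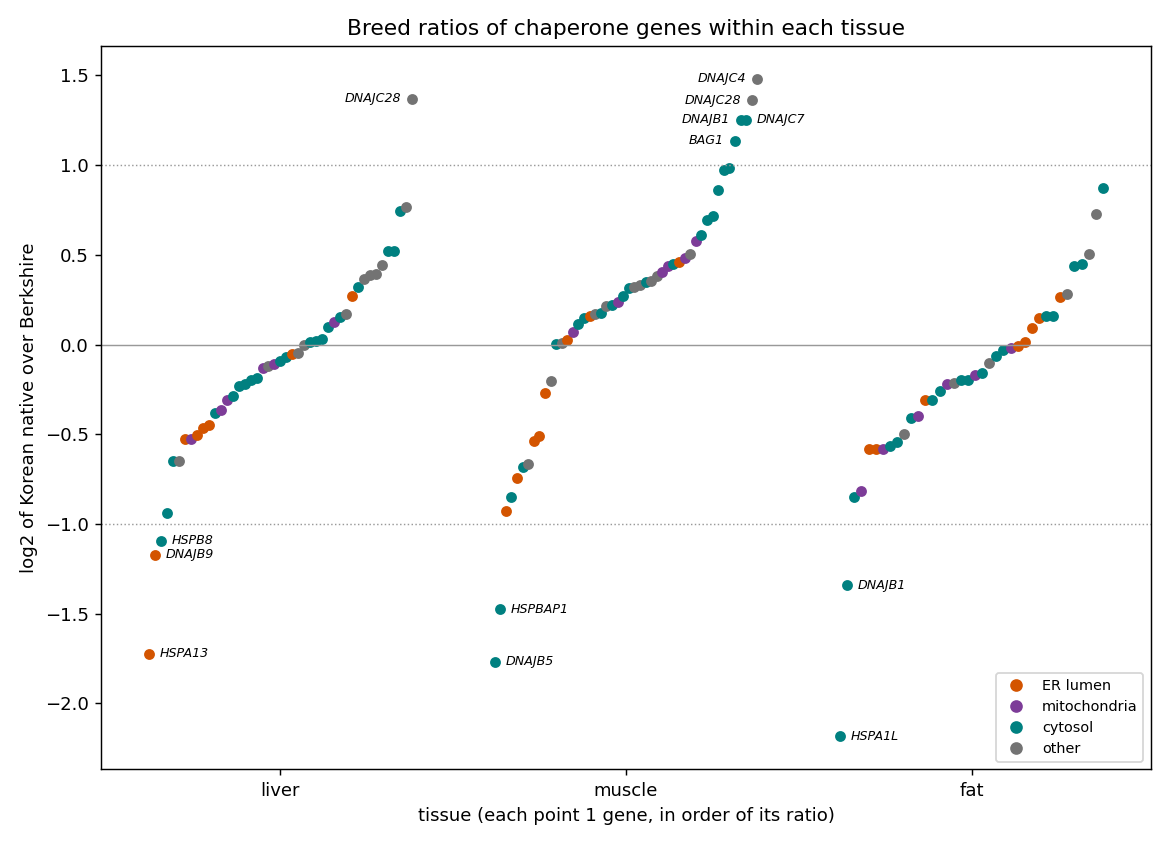
Log2 of Korean native over Berkshire (vertical axis) for members that reached 10 CPM in either library, within liver (45 genes), muscle (48) and fat (38), each tissue ordered by ratio and coloured by compartment, with dotted lines at 2-fold. HSPA1L in fat lies at -2.18, and most points in muscle lie above 0.

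In fat, the 2 members past 2-fold were HSPA1L and DNAJB1, both lower in Korean native (5.26%, against 3.42% of all genes), and 0 were higher, against 4.15% of all genes. HSPA1L was 4.54-fold lower (299 CPM in Korean native against 1361 CPM in Berkshire), and the ratio of 0.220 had a 95% exact binomial interval of 0.211 to 0.229. DNAJB1 was 2.53-fold lower, with a ratio of 0.391 and an interval of 0.333 to 0.459. Both intervals cover counting error only. Next in order were DNAJB4 (log2 -0.85), HSPE1 (-0.81), DNAJC1, DNAJB9 and DNAJC19 (-0.58 each), while HSPB8 (0.87) and DNAJC13 (0.73) were the highest. HSPB8 entered the set only through Korean native fat, since it did not reach 10 CPM in Berkshire fat. In all, 26 of 38 members (68.4%) were lower in Korean native fat, against 48.3% of all genes, and the median was -0.18 against 0.02.

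In the same fat libraries, immediate early genes, which tissue handling and stress induce within minutes to hours, were lower in Korean native for 5 of 9 list genes by at least 2-fold, beside 3.42% of all genes. In liver 0 of 7 were, beside 5.53% of all genes, and in muscle 2 of 7, beside 9.34%, and the tissues were not tested against each other. FOS was at 172 CPM in Korean native fat and 827 CPM in Berkshire fat, and EGR1 at 227 CPM in Korean native fat and 718 CPM in Berkshire fat, both picked after their values were seen. Of 8 glucocorticoid response genes, 6 were lower by at least 2-fold in Korean native fat, 3 in Korean native liver and 5 in Korean native muscle, beside the same 3.42%, 5.53% and 9.34% of all genes. Summed adipocyte markers also differed, as given above. Their part in the HSPA1L and DNAJB1 values was not tested.

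In liver, 3 members were at least 2-fold lower in Korean native (6.67%, against 5.53% of all genes) and 1 was higher (2.22%, against 5.76%). HSPA13 was 3.30-fold lower in Korean native (ratio 0.301, interval 0.255 to 0.354), DNAJB9 was 2.25-fold lower (0.443, interval 0.392 to 0.499) and HSPB8 was 2.13-fold lower (0.465, interval 0.374 to 0.577). DNAJC28 was 2.59-fold higher, and it entered the count only through Korean native liver, since it did not reach 10 CPM in Berkshire liver. BAG3 was 1.91-fold lower, just short of the threshold. The 8 ER lumen genes had a median log2 ratio of -0.48 in liver, against 0.00 for all genes, with HSPA5 at -0.53, HSP90B1 at -0.51, DNAJB11 at -0.46 and DNAJC3 at -0.45. DNAJC1 was at 0.27, so these genes did not all lie on the same side. Summed erythroid markers (3 of 6 with an ID) were at 2130 CPM in Korean native liver and 247 CPM in Berkshire liver, and their part in these ratios was not tested.

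In muscle, most members were higher in Korean native. Of 48 members, 11 (22.9%) were lower, against 46.3% of all genes, and the median was 0.29 against 0.08. The share in one direction depends on scaling, since by total counts the members' median was -0.09 and that of all genes -0.26. On that scale 0 members were at least 2-fold higher and 5 at least 2-fold lower, beside 21.6% of all genes 2-fold apart. DNAJC4 (log2 1.17) and DNAJC28 (1.05) stayed past 2-fold higher by total counts. They were not counted, because on that scale neither reached 10 CPM in either library. With TMM factors 5 members were at least 2-fold higher (10.4%, against 11% of all genes) and 2 at least 2-fold lower (4.17%, against 9.34%). Past 2-fold upward were DNAJC4 (11.8 CPM in Korean native muscle against 4.03 CPM in Berkshire muscle), DNAJC28, DNAJC7, DNAJB1 and BAG1 (154 CPM in Korean native against 69.9 CPM in Berkshire muscle). DNAJC4 and DNAJC28 entered the count only through Korean native muscle, since neither reached 10 CPM in Berkshire muscle. DNAJB1 was 2.38-fold higher, with a ratio of 2.40 and an interval of 1.87 to 3.10, and by total counts its log2 ratio was 0.94 in place of 1.25. DNAJC7 was 2.39-fold higher, and by total counts its log2 ratio was 0.94.

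Past 2-fold downward in muscle were DNAJB5 and HSPBAP1. HSPBAP1 entered the count only through Berkshire muscle, since it did not reach 10 CPM in Korean native muscle. DNAJB5 was 3.41-fold lower, with a ratio of 0.293 and an interval of 0.267 to 0.321, and HSPBAP1, whose product binds a small heat shock protein, was at 9.23 CPM in Korean native and 26.2 CPM in Berkshire muscle. BAG3 (log2 -0.68), DNAJB4 (-0.85), DNAJC1 (-0.93) and HSP90B1 (-0.75) were also lower in Korean native muscle, while HSPB8 (0.45) and HSPB6 (0.11) were higher. Summed skeletal muscle markers were at 136261 CPM in Korean native muscle and 87112 CPM in Berkshire muscle, and summed adipocyte markers were at 51.7 and 241 CPM in Korean native and Berkshire muscle, and their part in these ratios was not tested.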

How the data were processed

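Frozen liver, muscle and fat of 2 breeds gave 6 libraries. Per the submitters' processing notes, reads were aligned with TopHat to Sscrofa10.2 and counted per gene with HTSeq 0.5.3p3. The deposited values are raw counts per Ensembl gene ID, as the authors' counter left them. Nothing on strand, counting mode or annotation release is given in the sources used here. Without a known strand setting, overlapping and antisense genes cannot be told apart. The 5 closing entries that name no gene were left out. Among them, reads outside genes made up 45.9% to 52.5%, and reads with several alignments 14.1% to 20.8%, per library. Symbols came from the supplied name table. No gene coordinates are given, because the RefSeq gene table has another build. Levels are not compared between genes, because gene lengths were not used here.

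Tissues and breeds were compared with edgeR 4.0.16 in R 4.3.3, by the quasi-likelihood test with TMM factors, filterByExpr and tissue and breed as additive terms. The fit has 2 residual degrees of freedom, and its common dispersion gave a biological coefficient of variation of 29.5%. Tests were two-sided, and p-values were adjusted by Benjamini-Hochberg. Each SE was computed from log2 and F. The procedure was tested on simulated data. Members, lists and compartments (from textbook knowledge) were chosen with earlier results of these data known. Named genes were the 3 markers DNAJB1, BAG3 and HSPA1L, the 10 members of highest mean CPM, up to 8 members per direction of smallest p per tissue comparison, 5 per direction between breeds, 6 per direction of largest ratio within a tissue, up to 4 genes of smallest p per list, and the 5 genes most like DNAJB1 by r. DESeq2 1.42.0, limma 3.58.1, other scalings, filters, prior counts and each library left out were tried as alternatives.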

Additional observations from a re-analysis of the deposited data

Results flagged for a closer look

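DNAJB1 stood out because its breed difference had opposite directions in muscle and fat and, with TMM factors, was past 2-fold in both. Opposite signs alone were common: of 38 members with at least 10 CPM in either library of both tissues, 23 had them in muscle and fat, and DNAJB1 was the one past 2-fold in both. The matching shares of all genes are not given here, so neither count can be called unusual. HSPA1L was at a log2 ratio of 0.72 in muscle and -2.18 in fat, and HSPB8 at -1.09 in liver and 0.87 in fat. Of the fat libraries, only Korean native fat reached 10 CPM for HSPB8. For DNAJB1 the log2 ratio of Korean native over Berkshire was -1.34 in fat, where it was at 21.2 CPM in Korean native and 54.2 CPM in Berkshire. In muscle the ratio of DNAJB1 was 1.25, at 43.1 CPM in Korean native and 17.9 CPM in Berkshire. By total counts the log2 ratio of DNAJB1 was 0.94 in muscle, under 2-fold, and -1.43 in fat. In liver DNAJB1 was at 30.0 CPM in Korean native and 35.0 CPM in Berkshire, a log2 ratio of -0.22. Each tissue and breed has 1 library, so the difference between fat and muscle was not tested.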

How the results depend on the processing

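The count for liver over fat was 4 to 21 when 1 library was left out, against 18 (4, 7 and 8 with Berkshire fat, Berkshire liver or Korean native fat left out, beside 19.9%, 19.7% and 17% of all genes, which was 28.7% with all libraries), that for muscle over fat 2 to 11, against 7 (2, 3, 4 and 11 with Korean native fat, Korean native muscle, Berkshire fat or Berkshire muscle left out, beside 6.02%, 6.93%, 10.3% and 18.2% of all genes, which was 16.4% with all libraries), and that for liver over muscle 12 to 17, against 17. In liver over muscle, the share of all genes called was also lower than with all libraries whenever 1 library was left out. In liver over fat, the share of all genes was highest in the same fit that gave the highest member count. By total counts the muscle over fat count was 17, against 7, beside 43.6% and 16.4% of all genes. A total of 4 of 18, 2 of 7 and 10 of 17 called members kept their calls without each library in turn. The matching share of all called genes is not given here, so these counts do not set the members apart from other genes. Asking for at least 10 CPM in both libraries, 4 members were 2-fold apart in muscle, against 7, beside 15.6% and 20.3% of all genes. The members that dropped out were DNAJC4, DNAJC28 and HSPBAP1. In liver 3 members were, against 4, beside 7.79% and 11.3% of all genes, and DNAJC28 dropped out. BAG3 in liver over fat was at 0.75, and at -0.28 by total counts. With 1 library left out, log2 for DNAJB1 ranged from -0.96 to 0.91 in liver over fat, -1.34 to 0.70 in muscle over fat, -0.79 to 1.27 in liver over muscle and -0.80 to 0.51 between breeds. For HSPA1L it ranged from -1.68 to 1.122, -0.040 to 2.77, -2.44 to -0.72 and -0.83 to 0.62 in the same comparisons. HSPA1L in liver over muscle kept its sign, and the other 7 ranges include both signs. HSPA1L passed in muscle over fat without Berkshire fat (2.77, adjusted p 0.032, edgeR). The cause was not tested. No breed call appeared under any alternative. Leaving out a library leaves an arm with 1 sample, which is taken to vary like the others. The labels carry no replicate numbers, but the breed term already compares tissues within a breed. Without the breed term the counts were 19, 7 and 17, beside 27.4%, 15% and 34.3% of all genes. At this depth, levels under 0.294 to 0.692 CPM cannot be told from 0.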
